A study of Mus musculus with 20 samples.

Results

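Gene expression in the whole mouse embryo was compared between embryonic days E14.5 and E12.5, in the middle of gestation. The comparison set the 2 arrays labelled E14.5 against the 2 arrays labelled E12.5, that is 4 of the 20 arrays of a series of 8 stages, and the arrays were taken by those stage labels. Both groups were wild-type C57BL/6 embryos of mixed sex, kept free of specific pathogens and given no treatment that the labels name. All tissue of the embryo was taken apart from the amnion, the RNA of several embryos was pooled into a sample, and each sample was hybridised to its own array. Per array, the files gave a MAS5 signal for each probe set, a linear brightness value, and 14045 of the 18194 genes measured could be tested.

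A mouse embryo at E12.5 has limb paddles, a beating heart, a liver filling with blood precursors and a nervous system still making many of its neurons. Over the following days, muscle precursors fuse into fibres, cartilage models of the bones enlarge and begin to be replaced by bone, the epidermis adds layers above its basal cells, and hepatocytes take up the secretion of plasma proteins. Definitive red cells from the fetal liver replace the primitive red cells that arose in the yolk sac.

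Rises far outnumbered falls, and the largest were of genes of differentiated epidermis, muscle, cartilage, bone and liver. Of 14045 genes, 460 (3.28%) rose and 52 (0.370%) fell. Here and below, "rose" and "fell" are used of genes with a change of at least 2-fold and an adjusted p below 0.05 in limma, a linear model fitted across all genes with Benjamini-Hochberg adjustment. Changes are differences in log2(signal + 25.9) between the stage means, E14.5 minus E12.5, each given with its standard error (SE), and the added constant makes the change of a dim gene smaller than its ratio of signals. Of the rises, 99 were at least 4-fold and 15 at least 8-fold, against 3 and 1 of the falls. All 512 called genes had arrays that did not overlap between the stages. That alone is a weak criterion with 2 arrays a side, since 31.8% of the genes tested were higher on both E14.5 arrays and 31.1% were lower on both. At an unadjusted p below 0.05 the excess of rises was smaller, with 1800 genes higher and 1403 lower. It was also smaller at an adjusted p below 0.05 in limma without a minimum fold, with 918 higher and 544 lower.

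**Figure D1:**
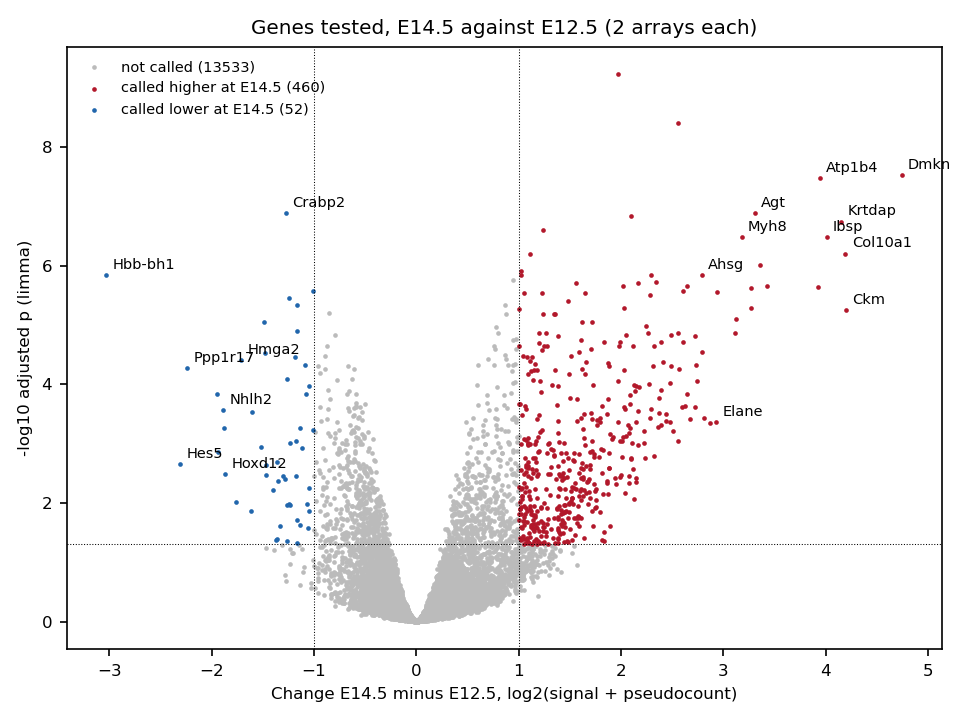
Each point is a gene tested, with its change from E12.5 to E14.5 in log2(signal + pseudocount) on the horizontal axis and -log10 of its adjusted p (limma) on the vertical axis, and dotted lines mark the thresholds. The 460 genes called higher (red) reach a change of 4.74, and the 52 called lower (blue) reach -3.03.

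The 4 arrays were alike in quality. Their median signals were 156 to 169, the ratio of the 3′ to the 5′ control probe set was 0.703 to 0.772 for Gapdh and 1.18 to 1.29 for Actb, and the correlation of log2 values was 0.991 within E12.5, 0.989 within E14.5 and 0.960 to 0.963 between the stages. The brightest signal differed more, at 31856 and 34129 on the E12.5 arrays but 26357 and 43913 on the E14.5 arrays, so the E14.5 arrays differed more at the bright end. The labels call the samples biological replicates, and p-values therefore rest on the spread between pools of embryos. That spread was estimated over all stages of the series together, those before E12.5 included, and not from the E12.5 and E14.5 pools alone. The arrays before E12.5 had lower median signals, between 67.2 and 91.1. With only the stages E12.5 to E18.5 fitted there were 578 rises and 62 falls, against 460 and 52 in the main fit. When each of the 4 arrays was left out in turn, 252 of the 512 genes stayed called in all 4 fits, 105 in none, and the count of rises was 292 without E14.5 replicate 2 and 317 to 327 without another array. A gene below is said to hold in all 4 fits, or named with the arrays without which its call was lost or kept. Leaving out an array also raises the SE, so a call can be lost though the change stays much the same. Because RNA of whole embryos was measured, a larger share of a tissue and more RNA of a gene per cell cannot be told apart in any result below.

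Gene lists for 51 tissues and processes were used to order the results. They named 818 distinct genes, of which 655 were tested; the rest had no usable probe set or too little signal, so a count below is of tested members and not of all members of a list. Of the 655, 129 rose and 17 fell. Across all genes tested the median change was -0.0006, and the medians of the lists are read beside that value.

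**Figure D2:**
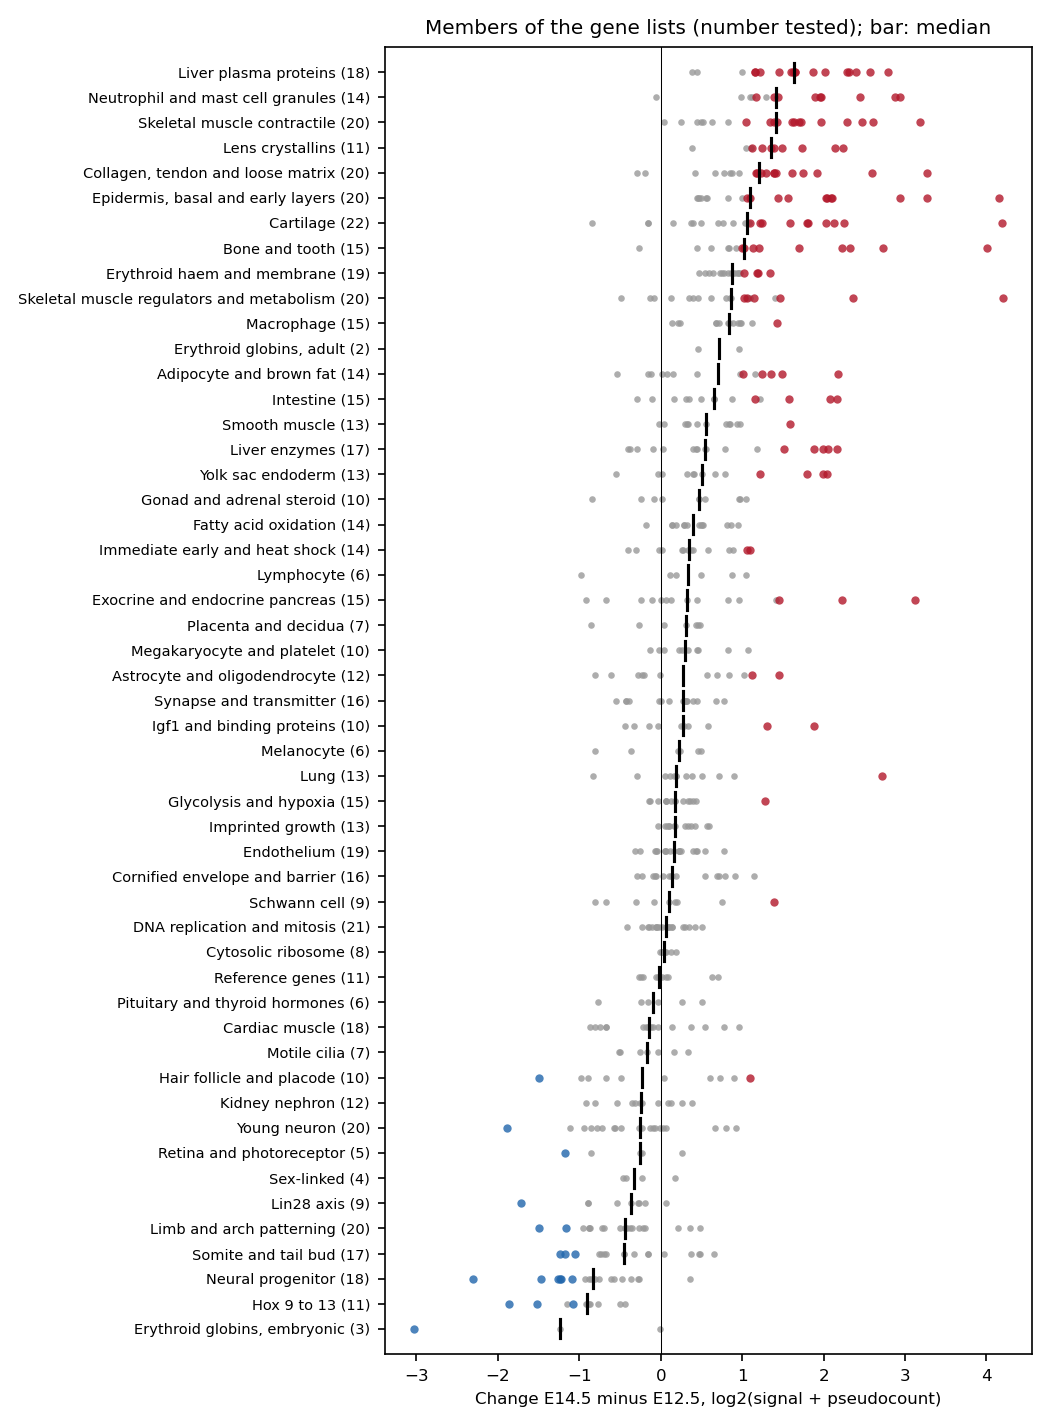
Each row is a gene list, each point a tested member with its change from E12.5 to E14.5 in log2(signal + pseudocount), red where called higher and blue where called lower, and the black bar is the median of the list. Liver plasma proteins stand at the top with a median of 1.63, and the embryonic globins and the Hox genes of groups 9 to 13 stand at the bottom.

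The suprabasal epidermis gave the largest rise of the comparison. Of 20 tested genes of the basal and early epidermis, 11 rose, 8 or 9 of them when an array was left out, none fell, and the median change was 1.10. Dmkn, which encodes the secreted epidermal protein dermokine and stood in no list, had signals of 12.9 and 9.30 at E12.5 and 1024 and 906 at E14.5, the largest change of any gene (4.74, SE 0.33, adjusted p 3.0e-08 in limma). Krtdap, a keratinocyte differentiation-associated secreted protein, went from 23.7 and 19.1 to 723 and 916. Both genes were near the floor of the arrays in both E12.5 pools and clearly above it in both E14.5 pools. The keratins that pair in the first suprabasal layer rose together: Krt1 read 96.9 and 113 at E12.5 and 1142 and 1339 at E14.5. Its partner Krt10 started brighter, at 610 and 643, and reached 2772 and 2781. Dsc1, a desmosomal cadherin of upper layers, went from 0.689 and 5.43 to 188 and 203, a change of 2.94 with an SE of 0.30. Dsg1a, its companion in the desmosome, went from 10.3 and 8.42 to 157 and 97.4. These suprabasal genes held in all 4 fits, whereas Krt77 (1.44) was called in none of them and Dsp (1.06) and Evpl (1.10) were lost in 3 of the 4.

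Genes of the basal layer and of the outermost layer were mostly not called. Krt5, a keratin of basal cells, read 742 and 679 at E12.5 and 1164 and 1412 at E14.5, a change of 0.83 (SE 0.19, limma) that was below 2-fold. Krt14, the partner of Krt5, was at 480 and 483 and then at 996 and 973 (0.99, SE 0.37), read by a probe set that may cross-hybridise. Trp63, the transcription factor that commits surface ectoderm to a stratified fate, had a change of 0.47. Krt15, another basal keratin, did rise, from 193 and 256 to 1050 and 929, and held in all 4 fits. Of 16 tested genes of the cornified envelope and barrier, the cross-linked shell of dead surface cells, none was called and the median change was 0.14. Lor, which encodes the main envelope protein loricrin, read 258 and 216 at E12.5 and 203 and 287 at E14.5. At E16.5 its mean was 12236. Flg, the gene of filaggrin, lay between 4.20 and 8.74 on all 4 arrays and averaged 9473 at E18.5.

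In skeletal muscle, genes of the contractile apparatus rose while the factors that specify the lineage were not called. Of 20 tested contractile genes 13 rose, 12 or 13 with an array left out, none fell, and the median change was 1.41. Myh8, the perinatal myosin heavy chain, had signals of 255 and 281 at E12.5 and 2777 and 2500 at E14.5 (3.18, SE 0.27, adjusted p 3.3e-07 in limma). Myh3, the embryonic myosin heavy chain, was already at 2293 and 2192 and reached 7328 and 7397. The chains of adult fast fibres were not called: Myh2 stayed between 5.74 and 9.36 on the 4 arrays, and Myh1 read 79.8 and 50.9 and then 110 and 117. The arrays of the stages were therefore far apart for both developmental myosins and, for Myh2, overlapped.

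The thin filament followed the same pattern. The 3 subunits of fast troponin rose by similar amounts: Tnnt3 went from 199 and 194 to 1302 and 1358, Tnni2 from 274 and 240 to 1584 and 1509, and Tnnc2 from 1086 and 1119 to 5305 and 5652. Acta1, the skeletal alpha-actin, went from 2551 and 2543 to 9129 and 11117, and had the smallest adjusted p of all genes (1.97, SE 0.10, 6.0e-10 in limma). Tnni1, the slow troponin I, rose by 1.05, but its change was 0.99 and thus below 2-fold without E14.5 replicate 2. Myh7, the slow and cardiac myosin, had a change of 0.49.

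Among 20 tested muscle regulators and metabolic genes 6 rose and the median change was 0.86, but 2 or 3 were called with an array left out and 3 with the added constant 4 times smaller or larger. Ckm, the creatine kinase that buffers ATP in muscle, went from 78.7 and 29.7 to 1366 and 1379 (4.20, SE 0.46, adjusted p 5.6e-06 in limma). Ampd1, the muscle AMP deaminase, went from 8.73 and 50.4 to 254 and 222. The E12.5 arrays of both genes differed from each other, yet lay well below both E14.5 arrays, and both genes held in all 4 fits. Myod1 and Myf5, the factors that commit cells to muscle, had changes of 0.12 and -0.13. Myog, which drives their differentiation, read 2083 and 2003 and then 2649 and 2728 (0.39). Myf6, the member of that family that is expressed in maturing fibres, rose from 56.0 and 38.5 to 176 and 173, a call that held only without E12.5 replicate 1. Atp1b4, a muscle protein related to the beta subunit of the sodium pump, stood in no list and rose from 36.9 and 37.5 to 917 and 969 (3.94, SE 0.28).

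The heart and endothelium lists had no called gene. None of 18 tested cardiac genes was called, and their median change was -0.14; with quantile normalization 1 was called higher and 1 lower. The ventricular light chain Myl2 read 2820 and 2935 at E12.5 and 2502 and 2780 at E14.5, while the atrial peptide gene Nppa read 1119 and 1205 and then 692 and 619 (-0.80, SE 0.15). The arrays of Nppa did not overlap, but the change was below 2-fold. None of 19 tested endothelial genes was called, with a median of 0.17. Of 13 tested smooth muscle genes only Myh11, the smooth muscle myosin, rose (1.59), and its call held, of the fits with an array left out, only without E14.5 replicate 1; no smooth muscle gene was called with an added constant 4 times smaller.

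In cartilage and bone, the largest rises were of genes of hypertrophic cartilage and mineralising matrix. Of 22 tested cartilage genes 10 rose (8 whichever array was left out), none fell, and the median change was 1.06. With quantile normalization 1 of the 22 was called lower. Col10a1, the collagen of hypertrophic cartilage, which is the last state before bone replaces it, went from 4.50 and 12.3 to 661 and 538 (4.19, SE 0.37, adjusted p 6.3e-07 in limma). Comp, Matn1 and Epyc, which encode proteins of the cartilage matrix, rose by 2.25, 2.03 and 2.13. Col2a1, the main collagen of cartilage of every age, had signals of 3174 and 3140 and then 5317 and 5483. Its change of 0.77 (SE 0.37) did not pass the test. Sox9, the factor that founds the cartilage lineage and also acts in several other tissues, read 849 and 839 and then 493 and 425, a change of -0.85 that was below 2-fold.

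Of 15 tested bone and tooth genes 9 rose, 6 to 8 with an array left out and 5 with an added constant 4 times larger, and the median was 1.03. Ibsp, the bone sialoprotein of mineralising matrix, went from 47.3 and 66.0 to 1309 and 1278 (4.01, SE 0.34). Dmp1, a matrix protein of osteocytes, went from 17.8 and 24.4 to 280 and 289, read by a probe set that may cross-hybridise. Ifitm5, a membrane protein of osteoblasts, went from 54.9 and 61.1 to 362 and 426, and Mmp13, the collagenase of hypertrophic cartilage and osteoblasts, from 3.60 and 12.2 to 92.2 and 74.5. All of these held in all 4 fits. Sp7, the transcription factor that commits osteoblasts, rose by 1.00, at the threshold itself, and the change was 0.86 without E12.5 replicate 1 and 0.80 without E14.5 replicate 2. Amelx and Ambn, the enamel protein genes of teeth, were not called.

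The loose connective tissue and tendon list had 12 rises among 20 tested genes (9 to 11 with an array left out) and a median of 1.20. Dpt, the dermal matrix protein dermatopontin, went from 77.5 and 91.3 to 1075 and 1001 (3.27, SE 0.33). Aspn, the small proteoglycan asporin, went from 356 and 411 to 2526 and 2375. The stages were far apart for both. Dcn and Postn, which encode the collagen-binding proteins decorin and periostin, were bright at both stages and rose by 1.42 and 1.23. Col3a1, the fibrillar collagen of soft tissue, read 17301 and 18254 and then 19970 and 28145 (0.42). Scx, the transcription factor of tendon progenitors, had a change of -0.29, while Tnmd, a product of mature tendon cells, rose by 1.75, a call that was lost without E12.5 replicate 1 or E14.5 replicate 2.

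In the liver, secreted plasma proteins rose more evenly than the enzymes of metabolism. Of 18 tested plasma protein genes 15 rose, 12 to 14 with an array left out, and the median change of 1.63 was the highest of the 51 lists. Ahsg, the calcium-binding fetuin, went from 334 and 288 to 2214 and 2398 (2.79, SE 0.26, adjusted p 1.5e-06 in limma). The 3 chains of fibrinogen, the clot protein, are made together: Fga rose by 2.32, Fgb by 2.02 and Fgg by 2.29, each with E12.5 arrays between 639 and 833 and E14.5 arrays between 2855 and 4062. Hpx, the haem carrier hemopexin, went from 309 and 328 to 1738 and 1828. Afp, the fetal serum protein, was bright throughout, at 19476 and 20162 and then 19938 and 33823 (0.39, SE 0.28). Alb, albumin, read 12380 and 13291 and then 20221 and 32405, a change of 1.00 whose adjusted p was 0.089 in limma. For Afp and Alb the E14.5 arrays differed from each other by more than the E12.5 arrays did. Agt, the angiotensin precursor made in the liver and in brain, stood outside the list and rose from a mean of 18.2 at E12.5, where both arrays were near the floor, to 427 and 393 (3.30, SE 0.26).

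Of 17 tested liver enzyme genes 5 rose and the median was 0.54. Otc, an enzyme of the urea cycle, went from 178 and 135 to 650 and 628, and Cps1, which feeds that cycle, from 64.6 and 78.7 to 271 and 235, although Cps1 lost its call without E12.5 replicate 1 or E14.5 replicate 1. Cyp3a11, a drug-metabolising cytochrome, went from 35.9 and 24.8 to 191 and 221. Some enzymes of the newborn and adult liver were still dim. Ugt2b34, by contrast, read 378 and 393 and then 1079 and 1265, by a probe set that may cross-hybridise. G6pc, which releases glucose, lay between 7.35 and 17.8 on the 4 arrays, and Cyp7a1, the rate-limiting enzyme of bile acid synthesis, between 24.9 and 56.9. Neither was called.

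Some products of lung, pancreas and intestine rose. Sftpc, the surfactant protein of distal lung, rose from 26.3 and 93.1 to 494 and 494 (2.72, SE 0.42), while Sftpb had a change of -0.29 and none of the other 12 tested lung genes was called. Of 15 tested pancreas genes 3 rose. Cpa1 and Ctrb1, digestive enzymes of acinar cells, rose by 3.13 and 2.23 and held in all 4 fits. Iapp, a hormone of beta cells, rose by 1.45 but was called only without E12.5 replicate 2. Of 15 tested intestinal genes 4 rose, 2 with an array left out. Fabp1 and Lgals4, a fatty acid carrier and a lectin of the gut lining, rose by 2.16 and 2.08; Apob and Krt20 rose too, but in none of the fits that left out an array. Fabp1 and Apob are also made in the liver. No tested gene of the kidney nephron (12), motile cilia (7), gonad and adrenal (10) or pituitary and thyroid (6) lists was called. With quantile normalization, however, 1 nephron and 1 gonad gene were called lower. With only the stages E12.5 and E14.5 fitted, or only E12.5 to E18.5, 1 gonad gene was called higher.

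Of 14 tested adipocyte genes 5 rose, 4 or 5 with an array left out but 2 with an added constant 4 times larger. Fabp4, the fatty acid carrier of fat cells and endothelium, went from 172 and 192 to 883 and 938. Pparg, the master factor of fat cell formation, went from 4.47 and 4.59 to 63.8 and 55.9, and Cebpa, which acts with it and also in liver, from 140 and 124 to 341 and 414. Ucp1, the heat-producing protein of brown fat, lay between 3.88 and 16.8 on the 4 arrays and averaged 9744 at E18.5.

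Blood showed granule proteins of myeloid cells rising and the globins changing unevenly. Of 14 tested neutrophil and mast cell genes 9 rose, 6 or 7 with an array left out and 5 with an added constant 4 times smaller, and the median was 1.42. Elane, neutrophil elastase, went from 19.1 and 73.1 to 491 and 476. Ctsg, the granule protease cathepsin G, went from 36.7 and 33.4 to 408 and 434, and Mpo, myeloperoxidase, from 480 and 427 to 1867 and 1839. Among proteins of later granules, Ltf (0.99), Camp (1.12) and Ngp (1.30) had positive changes that were not called. Lcn2, of the same kind, rose, but in none of the fits that left out an array. S100a8 and S100a9, other neutrophil proteins, rose too. S100a9 held in all 4 fits, and S100a8 was lost without E14.5 replicate 2. Cpa3, the mast cell carboxypeptidase, went from 168 and 118 to 856 and 913 (2.44, SE 0.40). Lyz2 (1.43) was the macrophage gene that rose among 15 tested, in none of the fits that left out an array, while 4 were called with quantile normalization and all 15 changes were positive. No tested gene of the lymphocyte (6) or megakaryocyte (10) lists was called.

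Among red cell genes an embryonic globin fell and several genes of the maturing cell rose. Hbb-bh1, an embryonic beta-like globin of primitive red cells, fell from 16658 and 18806 to 2069 and 2231 (-3.03, SE 0.29, adjusted p 1.5e-06 in limma), the largest fall of the comparison, read by a probe set that may cross-hybridise with other globins. Hba-x, the embryonic alpha-like chain, read 20711 and 24914 and then 9197 and 10116, a change of -1.23 with an adjusted p of 0.058 in limma. In several alternatives 2 of the 3 embryonic globins were called lower. These were quantile normalization, an added constant 4 times larger, only genes above the 75th percentile kept, and fewer stages in the fit. Hbb-y, the other embryonic beta-like chain, read 28193 and 30559 and then 22578 and 37806, so its arrays overlapped. It averaged 163 at E18.5. Hbb-b2, an adult beta chain, read 806 and 693 and then 1380 and 1591 (0.96), also by a probe set that may cross-hybridise. Of 6 adult globin genes in the list only 2 were tested and neither was called. The level of adult globin RNA cannot be read from them. Of 19 tested genes of haem synthesis, the red cell membrane and red cell regulators 4 rose (Hemgn, Rhd, Klf1 and Alas2), 2 to 5 with an array left out and 9 with quantile normalization, and all 19 changes were positive with a median of 0.87. Hemgn, a nuclear regulator of red cell precursors, went from 2854 and 2911 to 7156 and 7506. Klf1 (1.18) was called only without E14.5 replicate 1, and Alas2 (1.03), which starts the making of haem in these cells, in none of those fits.

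**Figure D3:**
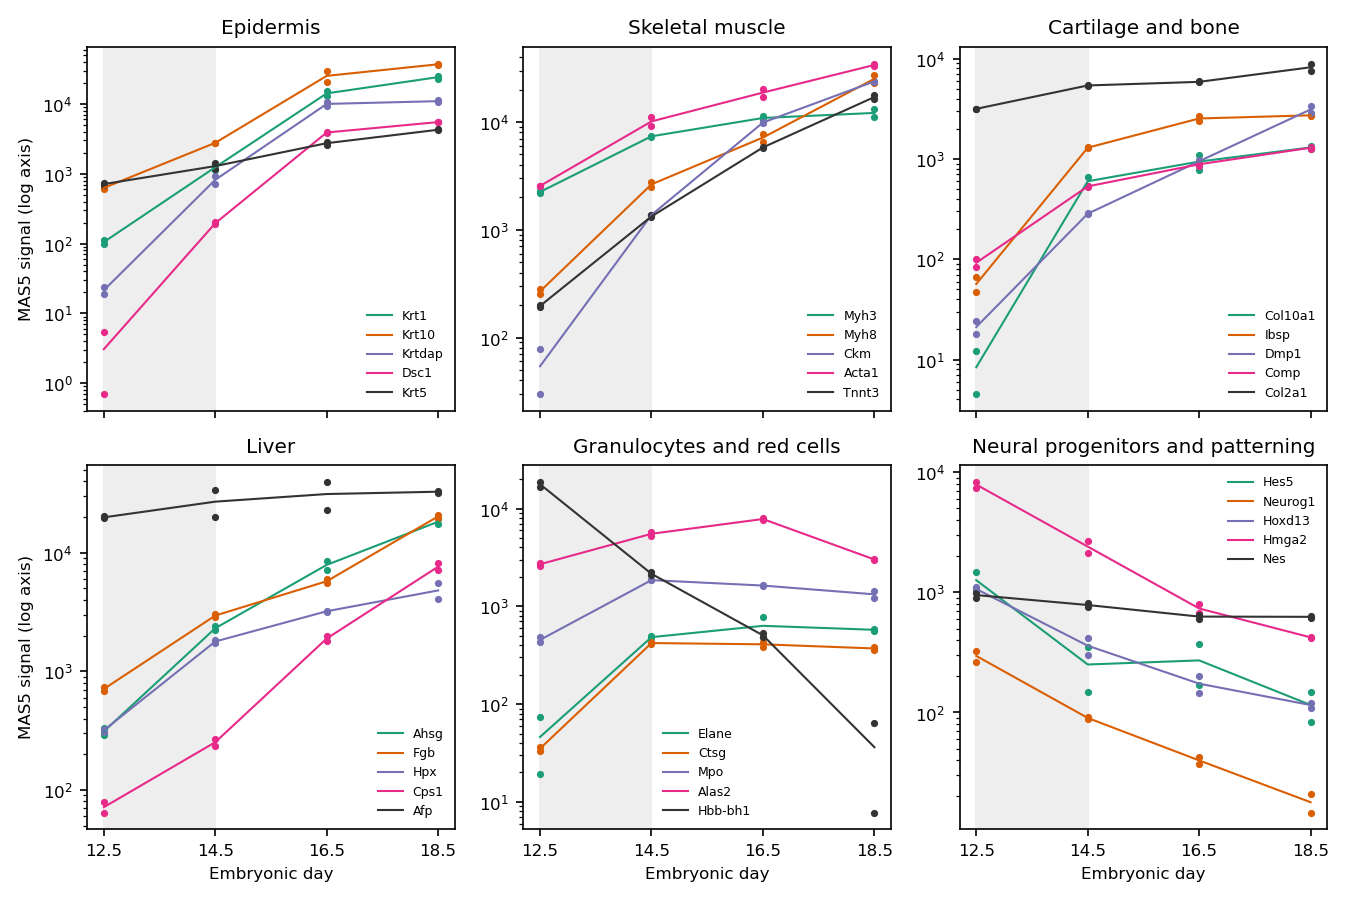
MAS5 signals on a log axis against embryonic day, from E12.5 to E18.5, with a point per array and a line through the mean of the 2 arrays of a stage, and the interval compared here is shaded. Krt1, Myh8, Col10a1, Ahsg and Elane rise steeply inside the shaded interval, Krt5, Col2a1 and Afp, which were not called, are less steep there, and Hbb-bh1, Hes5, Neurog1, Hoxd13 and Hmga2 fall.

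Crystallins are the stable proteins that give lens fibres their refractive power. Of 11 tested crystallins 8 rose, 5 or 6 with an array left out and 3 with an added constant 4 times smaller, all 11 changes were positive, and the median was 1.35. The gamma-crystallins of fibre cells had the largest changes: Crygb read 30.5 and 58.1 at E12.5 and 299 and 298 at E14.5 (2.24, SE 0.43), Crygd 39.7 and 33.1 and then 223 and 274 (2.14, SE 0.31), and Cryga 183 and 183 and then 595 and 760 (1.74, SE 0.33). Crygf went from 107 and 61.4 to 254 and 300, read by a probe set that may cross-hybridise, and was called only without E12.5 replicate 1. Gamma-crystallin genes are close copies of each other in a cluster, so their signals may not be independent. Cryab, an alpha-crystallin that is also made in heart and muscle, rose by 1.35, and Cryaa, its lens-restricted partner, rose by 1.25 but in none of the fits that left out an array.

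The gamma-crystallins rose together and their promoters are shown for that reason. RefSeq entries were matched for 7 of the 8 crystallins that rose, with coordinates on GRCm38.p6. Each line gives the 150 bases before the annotated start, 5′ to 3′ on the strand of the gene, with TATATA and TTTGTG in capitals, both searched on both strands; copies of TATATA overlap in Cryga and Crygb.
Cryga, chr1:65103364-65103513, minus strand: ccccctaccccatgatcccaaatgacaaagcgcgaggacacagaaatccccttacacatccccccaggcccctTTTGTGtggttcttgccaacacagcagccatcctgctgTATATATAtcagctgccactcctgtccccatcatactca
Crygb, chr1:65082291-65082440, minus strand: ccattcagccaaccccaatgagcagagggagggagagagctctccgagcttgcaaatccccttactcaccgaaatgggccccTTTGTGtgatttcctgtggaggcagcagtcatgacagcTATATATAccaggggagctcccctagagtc
Crygd, chr1:65063441-65063590, minus strand: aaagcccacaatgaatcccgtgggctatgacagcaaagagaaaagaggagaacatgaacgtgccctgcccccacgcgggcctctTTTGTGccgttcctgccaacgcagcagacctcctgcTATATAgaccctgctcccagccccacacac
Crygf, chr1:65926372-65926521, plus strand: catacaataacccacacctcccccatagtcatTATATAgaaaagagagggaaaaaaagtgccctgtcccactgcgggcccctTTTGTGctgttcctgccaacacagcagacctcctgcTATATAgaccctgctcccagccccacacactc

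In these 4 promoters TTTGTG began 66 to 77 bases before the start, and a TATATA began 28 to 39 bases before it. In Crygf a second TATATA began 118 bases before the start. Both motifs were present in these 4 of the 7 crystallin promoters and in 129 of 27025 promoters (0.477%) in the same window. Taken singly, TATATA was in 5 of the 7 and in 3.21% of all promoters, and TTTGTG in 5 of the 7 and in 9.25%. The motifs were chosen after the sequences had been looked at, so these shares describe the sequences and test nothing.

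For the contractile genes of skeletal muscle, the E-box CAGCTG, a form of it that myogenic factors are known to bind, was searched in the 250 bases before the start. It was present in 5 of the 10 rising genes with an entry (Acta1, Tnni1, Myl1, Mylpf and Mybpc1) and in 12.8% of all promoters. Of these, Acta1 encodes skeletal actin, and Myl1 and Mylpf are myosin light chains, which rose by 1.61 and 1.72. The lines give their 250 bases before the start, with CAGCTG in capitals.
Acta1, chr8:123894776-123895025, minus strand: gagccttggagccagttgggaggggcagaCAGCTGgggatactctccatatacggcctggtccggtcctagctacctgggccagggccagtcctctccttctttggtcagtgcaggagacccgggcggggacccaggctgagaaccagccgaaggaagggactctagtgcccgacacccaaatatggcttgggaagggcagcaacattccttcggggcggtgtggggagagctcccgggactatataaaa
Myl1, chr1:66945057-66945306, minus strand: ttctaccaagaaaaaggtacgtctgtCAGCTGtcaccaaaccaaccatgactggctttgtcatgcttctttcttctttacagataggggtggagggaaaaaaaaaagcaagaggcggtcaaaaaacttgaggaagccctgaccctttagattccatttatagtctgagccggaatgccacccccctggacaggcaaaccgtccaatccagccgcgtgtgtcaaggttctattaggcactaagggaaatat
Mylpf, chr7:127211358-127211607, plus strand: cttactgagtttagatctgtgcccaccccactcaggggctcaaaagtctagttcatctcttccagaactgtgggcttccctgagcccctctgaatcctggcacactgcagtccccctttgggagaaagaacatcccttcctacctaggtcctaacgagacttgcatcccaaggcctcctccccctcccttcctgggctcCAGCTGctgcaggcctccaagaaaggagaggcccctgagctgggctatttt

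CAGCTG began 221 bases before the start of Acta1, 224 before that of Myl1 and 51 before that of Mylpf. A match of letters is a description and not a bound site.

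Most of the 17 falls that stood in a list were in those of neural progenitors and of patterning genes. Of 18 tested neural progenitor genes 6 fell, 4 to 6 with an array left out, none rose, and the median change was -0.83. Hes5, the Notch target that keeps progenitors dividing, went from 1059 and 1466 to 149 and 353 (-2.31, SE 0.46), read by a probe set that may cross-hybridise, and its adjusted p was above the threshold without E14.5 replicate 1 (change -1.75). Neurog1, a proneural factor of sensory neurons, went from 265 and 326 to 92.2 and 87.9 and lost its call without E12.5 replicate 2 (change -1.33). Sox2 and Sox3, which maintain the progenitor state, went from 2941 and 2976 to 1396 and 1369 and from 579 and 544 to 204 and 236. The arrays of each of these genes were apart between the stages. Nes, the filament protein of progenitors, read 998 and 901 and then 814 and 756 (-0.27), and Pax6 had a change of -0.58; neither was called.

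Genes of neurons that have left the cell cycle were mostly not called. Of 20 tested genes of young neurons 1 fell, against 3 lower and 1 higher with quantile normalization. It was Nhlh2, which went from 1869 and 1742 to 506 and 434 (-1.89, SE 0.30), a transcription factor of newly born neurons. Dcx, the microtubule protein of migrating neurons, read 5211 and 5614 and then 5457 and 5548, and Tubb3, the neuronal tubulin, had a change of -0.56. None of 16 tested synapse and transmitter genes was called, and their median was 0.27. Among the 15 largest falls, Robo3, a receptor that lets axons cross the midline, went from 283 and 264 to 48.2 and 56.2. Ppp1r17, a phosphatase inhibitor known from cerebellar neurons, went from 398 and 418 to 69.6 and 62.9, and Tal2, a midbrain factor, from 188 and 183 to 56.6 and 10.7. The 3 genes held in all 4 fits. In glia, S100b (1.46) and Aldoc (1.12) rose, the first in none of the fits with an array left out and the second not without E12.5 replicate 1, and Mal, a myelin protein also made in epithelia, rose by 1.39, which was lost without E12.5 replicate 1 or E14.5 replicate 2.

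Some patterning genes of the trunk and limbs fell. Of 11 tested Hox genes of groups 9 to 13, which mark the posterior trunk and the distal limb, 3 fell (1 to 3 with an array left out), all 11 changes were negative, and the median was -0.91. Hoxd13, needed for digits, went from 1111 and 1023 to 303 and 416 (-1.52, SE 0.28) and held in all 4 fits. Hoxd12 (-1.86) lost its call without E14.5 replicate 2 (change -1.50), and so did Hoxa9 (-1.08), whose change was then -0.96. With quantile normalization 7 of the 11 fell. Of 20 tested limb and arch genes Msx1 and Msx2 fell, by 1.16 and 1.49 on the log2 scale, and both held in all 4 fits; with quantile normalization 6 of the 20 fell. Msx2, a homeobox gene of limb bud and skull mesenchyme, went from 497 and 568 to 228 and 130. Shh, the posterior signal of the limb bud that is also made in gut and lung epithelium, had a change of -0.49. In the somite list Dll3, Uncx and Pax1 fell among 17 tested genes, 5 of which had positive changes, and none was called with an added constant 4 times larger. Dll3, a Notch ligand of somites and neurons, went from 550 and 443 to 171 and 222. Uncx (-1.18) lost its call without E12.5 replicate 1 or E14.5 replicate 1, and Pax1 (-1.06) was called in none of the fits that left out an array.

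The remaining genes among the 15 largest changes each way came from several tissues. Serpina1c and Itih4, which encode a protease inhibitor and an inter-alpha-trypsin inhibitor chain of plasma, rose from 461 and 310 to 4274 and 4392 and from 13.4 and 45.9 to 796 and 764. Capns2, a calpain subunit, went from 3.80 and 8.36 to 268 and 335, and Ptgds, a prostaglandin synthase of the meninges and other tissues, from 101 and 82.7 to 961 and 1026. Each of the 4 had E14.5 arrays far above both E12.5 arrays and held in all 4 fits. Among the falls, Rfx4, a factor of the neural tube, went from 513 and 484 to 157 and 136, and Hoxb5os, a transcript antisense to a Hox gene, from 946 and 956 to 303 and 350, and both held in all 4 fits. Hoxc5 read 446 and 876 and then 180 and 244, a call lost without E12.5 replicate 2 (change -1.003). Ppp6r1, a phosphatase subunit, read 601 and 514 at E12.5 but 52.3 and 349 at E14.5, so its fall of 1.77 on the log2 scale rested on E14.5 replicate 1: without it the change was -0.64. The call was also lost without E12.5 replicate 1 (-1.66). St18 (-1.61) and Skor1 (-1.37), transcription regulators of neurons, were called in none of the fits that left out an array, although their arrays lay close together within a stage.

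Hmga2, a chromatin protein of growing embryonic tissue and a target of let-7 microRNAs, was bright at E12.5 with 7456 and 8342 and fell to 2674 and 2138 (-1.71, SE 0.22, adjusted p 3.9e-05 in limma). It held in all 4 fits. The other 8 tested genes of the Lin28 axis were not called; Igf2bp1 and Igf2bp3, RNA-binding proteins regulated by the same microRNAs, had changes of -0.89 and -0.53, and Lin28a lay between 39.5 and 61.2 on the 4 arrays.

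Most growth and housekeeping lists had no called gene. None of 21 tested DNA replication and mitosis genes was called (median 0.06). None of 13 imprinted growth genes (0.17), 8 ribosomal protein genes (0.04), 14 genes of fatty acid oxidation (0.40) or 11 reference genes (-0.02) was called either, although 13 of the 14 fatty acid oxidation genes had positive changes and 1 was called with quantile normalization. Of 10 tested genes of Igf1 and its binding proteins 2 rose (1 with an added constant 4 times larger), with a median of 0.27. Igf2, the main fetal growth factor, read 15200 and 15579 and then 13832 and 19658. Igfbp1, a binding protein for insulin-like growth factors made in liver, rose from 242 and 221 to 885 and 969, and Igfbp6 rose by 1.31 but was called only without E12.5 replicate 1. Ndrg1, a stress- and differentiation-responsive gene, was the sole rise among 15 genes of glycolysis and hypoxia (1.28). Hprt, often used as a reference, had a change of 0.70 (SE 0.09), below 2-fold.

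Signs of handling and of tissue outside the embryo were measured the same way. Of 14 tested immediate early and heat shock genes, Fos rose by 1.06 and Hspb1 by 1.10, and the summed signal of the list was 10431 and 10211 at E12.5 and 12920 and 13203 at E14.5. Fos was not called without E12.5 replicate 2 or E14.5 replicate 1. Of 18 placenta and decidua genes 7 were tested and none was called, with summed signals of 776 and 793 and then 847 and 891; the prolactin family member Prl8a2 had a change of -0.86 and Psg23 of 0.04. Of 13 tested yolk sac genes Spink1, Spp2, Apoc2 and Ttr rose (2 with an added constant 4 times smaller), and the summed signal went from 13933 and 14768 to 28135 and 32378. These 4 are also made in liver or gut, and Apoc2 and Ttr were called in none of the fits that left out an array. Genes of the endocytic yolk sac surface were not called: Amn read 46.8 and 60.4 and then 86.0 and 87.8, Cubn between 42.6 and 86.9 on the 4 arrays, and Rhox5 had a change of -0.55. None of 4 tested sex-linked genes was called. The part of any of these in the results above was not tested.

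The changes of this step were tested against those of the step from E16.5 to E18.5. That step is equally long, uses the same set of arrays and shares none with the step from E12.5 to E14.5. The test was of the signed difference between the changes in the same limma model. A gene that hardly changed in the first step and fell in the later one can therefore be above. The change from E12.5 to E14.5 was above the later change for 324 genes (2.31%) and below it for 238 (1.69%). In the later step itself, 494 genes (3.52%) were higher and 109 (0.776%) lower. Of the 460 genes that rose, 151 had a change above that of the later step, which is 32.8% of the rises and 46.6% of the 324; none had a change below it, and 309 were not called different. Of the 52 that fell, 15 had a change below that of the later step, and 37 were not called different. The 460 rises were chosen for a high change in the first step, and that choice favours "above" over "below" in these counts.

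The lists differed in how many members were above or below the later step. Of the 19 red cell genes 17 had a change above that of the later step, and 12 of the 19 were called lower from E16.5 to E18.5. Klf1, the red cell regulator, had means of 1479 at E12.5, 3381 at E14.5 and 569 at E18.5. Cartilage had 7 of 22 genes above and none below; in the later step its median change was 0.03. Basal and early epidermis had 7 of 20 above and none below. Col10a1 and Ibsp, with changes of 4.19 and 4.01 in the first step, had changes of 0.48 and 0.11 in the later one. By contrast the lung list had 5 of 13 genes below and none above, adipocytes 6 of 14 below and none above, and the cornified envelope 4 of 16 below and none above. The liver lists divided: 6 of 18 plasma protein genes were above and none below, and 3 of 17 enzyme genes were above and 6 below. Skeletal contractile genes had 6 above and 4 below, and 11 of the 20 were called higher in the later step too.

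**Figure D4:**
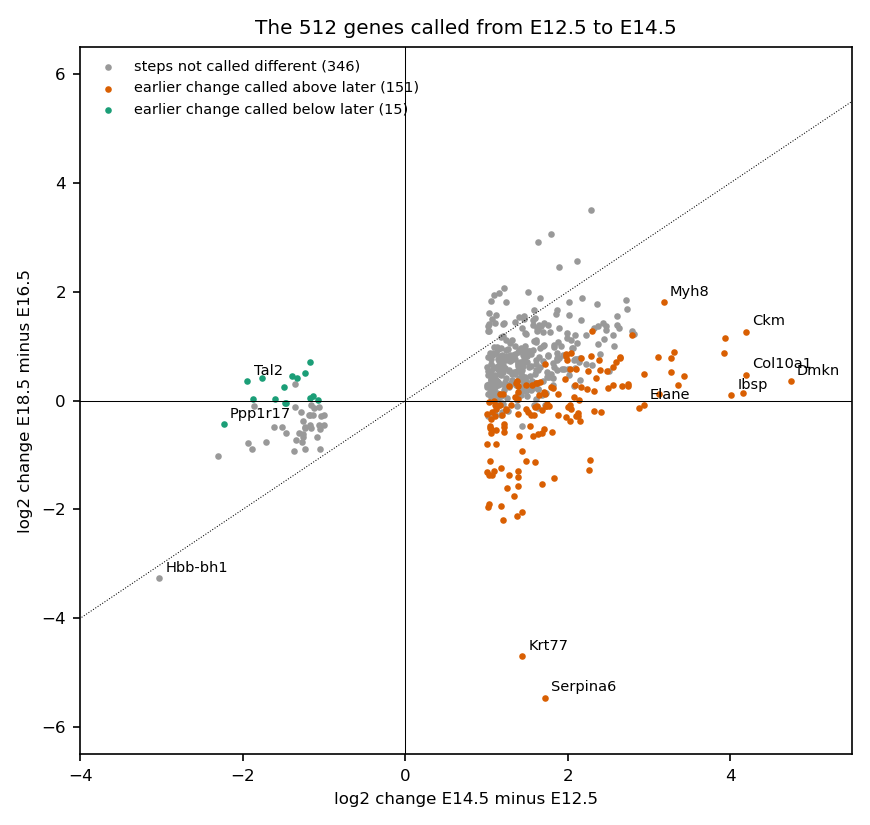
Each point is 1 of the 512 genes called from E12.5 to E14.5, with that log2 change on the horizontal axis and its log2 change from E16.5 to E18.5 on the vertical axis; the dotted line marks equal changes. For 151 genes (orange) the earlier change was called above the later, for 15 (green) below, and 346 (grey) were not called different; Serpina6 and Krt77 lie lowest.

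Most of the genes that rose stood higher still at the later stages. Of the 460 genes, 423 had a higher mean at E16.5 than at E14.5 and 406 had a higher mean at E18.5 than at E14.5. These counts share the E14.5 arrays with the comparison that chose the genes and are given as a description. The same shares over all genes tested were not counted, so how far the rises depart from them is not known. In the later step 74 of the 460 were called higher (16.1% of the rises and 14.98% of the later list) and 25 were called lower (5.43% and 22.9%). That step shares no array with the first, but both use the same estimate of a gene's spread, so the overlap is not of independent tests. Of the 52 falls, 43 had a lower mean at E18.5 than at E14.5, a count that also has no share over all genes beside it. Only 1 of the falls, Hbb-bh1, was called lower in the later step.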

How the data were processed

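Total RNA of 4 pools of embryos (2 at E12.5, 2 at E14.5) was measured on Affymetrix arrays as part of a series of 20 arrays. The deposited values are of unit intensity: the authors computed a MAS5 signal per probe set, per the submitters' processing notes, on a linear scale. The mean of each array without the lowest and highest 2% of values was 500.0, which is what scaling every array to one trimmed mean gives; version and settings are not given in the sources used here. No other normalization was applied. Arrays give no read depth, and their number limits the precision.

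Of 45101 probe sets, 64 of them controls, the 34958 with a single gene symbol were used; 932 had several symbols and 9211 none. Entrez identifiers of 34754 were matched to RefSeq, which changed 0 symbols. A gene was represented by the probe set with the highest mean log2 over the 20 arrays. The 14045 of 18194 genes above the array's median on at least 2 arrays were tested on log2(signal + 25.9), the pseudocount being the median of the arrays' 25th percentiles. A mean per stage was fitted over all 20 arrays (12 residual degrees of freedom) with limma 3.58.1 in R 4.3.3, using moderated variances with a trend on mean level, two-sided, with Benjamini-Hochberg adjustment over all genes tested, and called at an adjusted p below 0.05 and at least 2-fold. The second contrast was the change from E12.5 to E14.5 minus that from E16.5 to E18.5. The fitting code was checked on simulated signals whose changes were known.

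The comparison, the 51 gene lists and the naming rule were chosen with earlier results of these data known. Named genes were the 15 largest rises and falls and the 6 largest differences between steps each way. For these, only called genes with separate arrays, a characterised symbol and no _s_at or _x_at probe set were ranked. The first 3 tested members of each list and up to 5 called members of each were named too. Other list members are named where a paragraph describes the list, and genes in the closing paragraphs were chosen after their values were seen. Alternatives were quantile normalization, 75th percentile scaling, the pseudocount divided or multiplied by 4, all genes kept, only genes above the 75th percentile kept, probe sets of a gene averaged, fewer stages in the fit, no minimum fold, a block for the replicate number, and each array left out in turn. Promoters came from RefSeq (GRCm38.p6), using the first listed start of a gene.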

Additional observations from a re-analysis of the deposited data

Results flagged for a closer look

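The change from E12.5 to E14.5 was set against the change from E16.5 to E18.5 by the limma test of the difference itself. Given here are 12 genes called in the first step, with the 6 largest differences each way. Values are the first change minus the second on the log2 scale. Genes with an uncharacterised symbol or a probe set ending in _s_at or _x_at were left out of the ranking. Neurod4 (-1.91) and Trib3 (-1.86) were left out in this way, though their differences were larger than some given below.

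Serpina6, the corticosteroid-binding globulin of plasma, had the largest difference (7.18): it rose from 2111 and 2252 at E12.5 to 6798 and 7736 at E14.5, and its mean was 6347 at E16.5 and 122 at E18.5. Krt77, a keratin, followed (6.14), with a mean of 6119 at E16.5 and 211 at E18.5, but its rise from E12.5 to E14.5 was called in none of the fits that left out an array. Dmkn (4.39), Krtdap (4.02), Ibsp (3.90) and Col10a1 (3.72) had a large change in the first step and changes of 0.35, 0.13, 0.11 and 0.48 in the later one.

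In the other direction, Tal2 (-2.30), Ppp6r1 (-2.18) and Ppp1r17 (-1.80) fell in the first step and had later changes of 0.36, 0.41 and -0.44. Ccdc40 (-1.88), Crocc (-1.75) and Pdzph1 (-1.74) were dim, and their E14.5 arrays disagreed: Ccdc40 read 78.3 and 20.8, Crocc 94.7 and 35.7, and Pdzph1 5.77 and 25.1. Their falls were called in 1 of the 4 fits that left out an array. No explanation of these differences was tested.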

How the results depend on the processing

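No named gene that was called changed sign in any alternative, no list median did under either other scaling, and of 127 named genes that were called 72 stayed called in every setting and 82 without each array in turn. Rises numbered 460, 918 without a minimum fold, 292 to 327 with an array of E12.5 or E14.5 left out and 430 to 433 without an E16.5 or E18.5 array. Falls numbered 52, 106 with quantile normalization, 30 with a pseudocount 4 times larger, 33 with a filter at the 75th percentile, 544 without a minimum fold, 37 to 51 with an array of E12.5 or E14.5 left out and 49 to 52 without a later one. Genes above the later step numbered 324, 557 when only stages E12.5 to E18.5 were fitted, 642 without a minimum fold and 252 to 268 with any of the 8 arrays of both steps left out. Genes below it numbered 238, 360 with quantile normalization, 129 with a pseudocount 4 times smaller, 397 when only those stages were fitted, 425 without a minimum fold and 169 to 201 with any of those 8 left out. The causes were not tested beyond what these settings are built to do. With an array left out its stage keeps 1 array, which is assumed to vary like the other stages. Same-numbered deviations of E12.5 and E14.5 correlated at 0.025, and over the 6 pairs of stages from E12.5 on at -0.046 to 0.135. Low correlations cannot exclude that replicate numbers pair samples. At E12.5, E14.5 and E16.5 replicate 2 had the lower Gapdh and the higher Actb control ratio, and at E18.5 the reverse. With the replicate block, fitted over E12.5 to E18.5, there were 582 rises, 64 falls, 564 genes above and 400 below, against 578, 62, 557 and 397 in the same stages without the block. The all-gene median was -0.01 under both other scalings. Rises made up 89.8% of calls, 81.5% with quantile normalization and 62.8% without a minimum fold. With 2 arrays a stage, changes near 2-fold and dim genes are the least certain; 187 of the rises had a mean signal under 100 at E12.5.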

Other observations

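Plasma protein genes outside the list rose too, and their families were counted after the values were seen and are given as values. All 5 tested inter-alpha-trypsin inhibitor genes rose (Itih1 to Itih5, changes of 1.09 to 3.92). So did 6 of 10 tested genes with coagulation factor symbols, 7 of 17 with complement symbols and 10 of 17 with Apo symbols. Over all genes tested the share was 3.28%. Groups were formed by symbol and hold genes that do not encode plasma proteins, such as C1d, C1ql1 and Apoo. They also hold genes that stand in a list, such as Apob and Apoc2. Not every gene of these groups that rose held in all 4 fits: Apob, Apoc2, Apof, C1ra and F5, among others, did not. Kng1, the kininogen precursor, went from 303 and 317 at E12.5 to 2238 and 2365 at E14.5, and Serpinc1, antithrombin, rose by 1.86. F12, the factor that starts the contact pathway, rose by 1.99 and F11, which it activates, by 1.83, so genes for both clotting factors and their inhibitor rose in the same interval. Acute phase proteins were included: Hp, haptoglobin, went from 32.5 and 28.4 to 208 and 229, and Apcs, serum amyloid P, from 14.1 and 59.0 to 243 and 273. These named genes held in all 4 fits that left out an array, apart from Itih1, which held in none. All 4 tested Ugt2b genes, which conjugate steroids and drugs, rose by 1.42 to 1.68. Only Ugt2b34, read by a probe set that may cross-hybridise, held in all 4 fits. Gsta2, a detoxifying transferase, went from 3.81 and 5.97 to 122 and 128.

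Mast cell genes rose beside the neutrophil granule genes. Cma1, a mast cell chymase, went from 106 and 72.1 to 469 and 441, Hdc, which makes histamine, from 41.5 and 70.1 to 244 and 203, and Tpsb2, a tryptase, from 3.02 and 11.2 to 73.6 and 70.2. Cma1 lost its call without E12.5 replicate 2, Hdc without E12.5 replicate 1 or E14.5 replicate 1, and Tpsb2 without any of the arrays. Metallothioneins, which bind zinc and copper, were bright and rose: Mt1 from 3352 and 3319 to 8602 and 10335, and Mt2 from 3143 and 3142 to 7042 and 8248. Both were called lower from E16.5 to E18.5. Agtr2, an angiotensin receptor of fetal mesenchyme, went from 1325 and 1265 to 4625 and 4085 in the same interval in which its ligand precursor Agt rose. Car3, a carbonic anhydrase of muscle and fat, rose by 2.56. Across all Hox clusters, 28 of 29 tested genes had negative changes with a median of -0.77, and 6 fell. Of the 6, Hoxd13 and Hoxa2 held in all 4 fits, while Hoxd12, Hoxa9 and Hoxa7 were lost without E14.5 replicate 2, Hoxa7 also without 2 other arrays, and Hoxc5 without E12.5 replicate 2. Neurod4, a proneural factor, fell from 190 and 178 to 36.4 and 26.5. Of the genes in this paragraph, Hdc, Mt1 and Neurod4 were read by probe sets that may cross-hybridise.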
